A study of Mus musculus with 2 samples.

Results

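Lhx6 interneurons without somatostatin were 294 of the 22389 nuclei in hippocampal libraries from PS19 and PZKO mice. They were chosen by measured UMIs (unique molecular identifiers, each counting 1 captured RNA molecule). A nucleus was a member if it held at least 3000 UMIs with at most 5% of them mitochondrial, at least 5 UMIs of Gad1 and Gad2 together at no less than 3 per 10000 UMIs, more Gad1 and Gad2 UMIs than Slc17a7 and Slc17a6 UMIs, fewer than 10 Adarb2 UMIs per 10000, at least 3 UMIs of Lhx6 and Sox6 together, and fewer than 3 Sst UMIs. The levels of these genes in the members therefore describe the choice and are not results.

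Hippocampal nuclei of male mice aged 9 months were profiled with 10x Chromium 3' single-nucleus RNA sequencing, and the study asked how loss of Zbp1 changes the response of hippocampal cells to tau. Both groups carried the PS19 transgene, a mutant human tau driven by the mouse prion protein promoter, so neither library shows tissue without the transgene. PS19 mice were PS19+/- Zbp1+/+ and PZKO mice were PS19+/- Zbp1-/-, and the strain of both is given as PS19 ZBP1. Each genotype was represented by 1 library, titled as pooled hippocampi, and the study's statistics section also describes pools of several males per genotype. The protocol nevertheless describes animals handled separately, and the deposited nuclei carry no animal of origin. There is thus no replicate of either genotype, no test between genotypes was possible, and every interval given here covers counting error only. With 1 library per genotype, the library and the genotype cannot be told apart.

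Interneurons that arise in the medial ganglionic eminence keep the transcription factors Lhx6 and Sox6 into adulthood. Those that do not make somatostatin are chiefly fast-spiking cells, and they include basket cells, which contact the soma of pyramidal cells, and axo-axonic cells, which contact the axon initial segment. Both commonly hold parvalbumin (Pvalb), a calcium buffer of their terminals. Their brief spikes rest on Kv3 potassium channels (such as Kcnc1 and Kcnc2), their release on the fast calcium sensor synaptotagmin 2 (Syt2), and many of them are wrapped in a perineuronal net built on aggrecan (Acan). Ivy cells of the same lineage hold neuropeptide Y (Npy) and little parvalbumin.

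Barcodes called as nuclei numbered 11469 for PS19 and 10920 for PZKO. After the limits on UMIs and mitochondrial share, 8164 and 8679 nuclei remained, of which 459 and 544 met the inhibitory criteria. Members numbered 127 in PS19 and 167 in PZKO. They made up 27.7% of inhibitory nuclei in PS19 (exact binomial 95% interval 23.6 to 32.0) and 30.7% in PZKO (26.8 to 34.8), and these intervals overlap. Interneurons that passed the same Lhx6 and Sox6 limit but held at least 3 Sst UMIs, called somatostatin interneurons here, numbered 43 and 89. Their share of inhibitory nuclei was 9.37% in PS19 (6.86 to 12.4) and 16.4% in PZKO (13.3 to 19.7). Members were accordingly 74.7% of the Lhx6 lineage in PS19 (67.5 to 81.0) and 65.2% in PZKO (59.1 to 71.1). In pooled tissue, a lower share of nuclei and a lower RNA content per nucleus cannot be told apart wherever a limit on raw UMIs decides membership.

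The PZKO members held more UMIs per nucleus. They had a median of 31599 UMIs (lowest 9993, highest 87562) and 6400 genes, against 22792 UMIs (7933 to 71775) and 5722 genes in PS19, and their summed UMIs were 5894221 and 3131060. A limit in raw UMIs therefore acts differently in the 2 libraries. When every nucleus was thinned to 10000 UMIs before the criteria were applied, members were 24.0% of inhibitory nuclei in PS19 (73 of 304) and 28.9% in PZKO (105 of 363). Of the barcodes, 47 occurred in both libraries, and 1 of these was a PS19 member and 0 were PZKO members.

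The markers given for the class were present. Gad1, the main GABA-synthesizing enzyme, had at least 1 UMI in 125 of 127 PS19 members and 164 of 167 PZKO members, and Lhx6 in 89 and 129. Both genes were used in the choice, so these counts only describe it. In each library 38 members had 0 Lhx6 UMIs and met that limit by Sox6 alone. Pvalb, which the choice did not use, had a UMI in 60.6% of PS19 members (51.6 to 69.2) and 64.7% of PZKO members (56.9 to 71.9). In excitatory neurons, which should lack it, Pvalb had a UMI in 4.38% of PS19 nuclei and 5.82% of PZKO nuclei, at median depths of 20369 and 26628.5 UMIs. Thinned to 10000 UMIs per nucleus, with 5 PS19 members and 1 PZKO member too shallow to enter, Pvalb was detected in 45.9% of 122 PS19 members and 41.0% of 166 PZKO members, against 2.76% and 2.41% of excitatory neurons. Nkx2-1, an earlier factor of the same lineage, had a UMI in 0 PS19 members and 2 PZKO members, and Chat, which marks cholinergic cells of the basal forebrain, in 0 of either. Other markers on the list of GABA neurons outside the hippocampus were present, and the list summed to 62.3 CPM in PS19 members and 36.0 CPM in PZKO members. Its most abundant gene, Meis2, had 97 and 82 UMIs, with up to 33 in 1 PS19 nucleus and 19 in 1 PZKO nucleus, and was lower in PZKO by more than 1.5-fold (-1.16, -1.60 to -0.72). Without the PS19 nucleus that held 33 of the 97 UMIs, the difference in Meis2 lies within 1.5-fold. Zic1 had 19 and 8 UMIs, and Lhx8 was at 0 like Chat. The part of such neurons in the results was not tested.

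Around the limits of the choice, Pvalb tracked the number of Sst UMIs. In members with 0, 1 and 2 Sst UMIs, Pvalb stood at 114, 63.3 and 18.2 CPM (the UMIs of the gene as parts of all UMIs of the summed nuclei, where 10000 CPM is 1%) in PS19, from 92, 27 and 8 nuclei. In PZKO the values were 79.7, 41.5 and 3.91 CPM, from 129, 30 and 8 nuclei. Just outside the limit, nuclei with 3 Sst UMIs held 17.8 CPM in PS19 (5 nuclei) and 4.90 CPM in PZKO (12 nuclei), so members with 2 Sst UMIs were close to the excluded nuclei in Pvalb. Nuclei with fewer than 3 Sst UMIs that were left out for fewer than 3 Lhx6 and Sox6 UMIs numbered 116 and 100 and held 10.97 and 10.53 CPM of Pvalb. Just inside that limit, members with 3 such UMIs held 100.4 CPM in PS19 (8 nuclei) and 9.59 CPM in PZKO (7 nuclei). The shallowest members, at 7933 and 9993 UMIs, lay well above the limit of 3000 UMIs.

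The comparison of the members with other interneurons of the same library asked which genes set them apart, and a gene was counted only where both libraries gave the same direction past 1.5-fold. Against somatostatin interneurons, 9 of 18 fast-spiking channel genes and 5 of 8 perineuronal net genes were higher in the members, and 9 of 26 glutamate receptor genes were lower. Some lists had medians that differed between the libraries, among them ivy and neurogliaform markers, with a median log2 ratio of -2.23 in PS19 and -0.16 in PZKO, and caudal interneuron markers, with 1.83 and -0.06. Levels are CPM of UMIs summed over the nuclei of a class. Of 10030 genes that reached 100 UMIs in the classes compared, 603 (6.01%) were at least 1.5-fold higher in the members in both libraries and 480 (4.79%) were at least 1.5-fold lower. Against Adarb2 interneurons (the 160 PS19 and 178 PZKO inhibitory nuclei with at least 10 Adarb2 UMIs per 10000, of caudal ganglionic eminence type), 773 of 10887 genes (7.1%) were higher and 894 (8.21%) lower. No test was made here, because the 2 libraries differ in genotype and are not replicates, and shares of a list are read beside these percentages.

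Pvalb was 96.8 CPM in PS19 members and 69.2 CPM in PZKO members, against 7.93 and 2.30 CPM in somatostatin interneurons and 1.32 and 1.38 CPM in Adarb2 interneurons. Syt2 was 121 and 129 CPM in the members, against 3.97 and 9.22 CPM in somatostatin interneurons. Tac1, which encodes substance P and marks basket cells, was 23.6 and 16.8 CPM against 9.91 and 8.23 CPM. Of 6 basket cell markers with enough UMIs, 4 were higher than in somatostatin interneurons in both libraries, and 6 were higher than in Adarb2 interneurons.

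**Figure D1:**
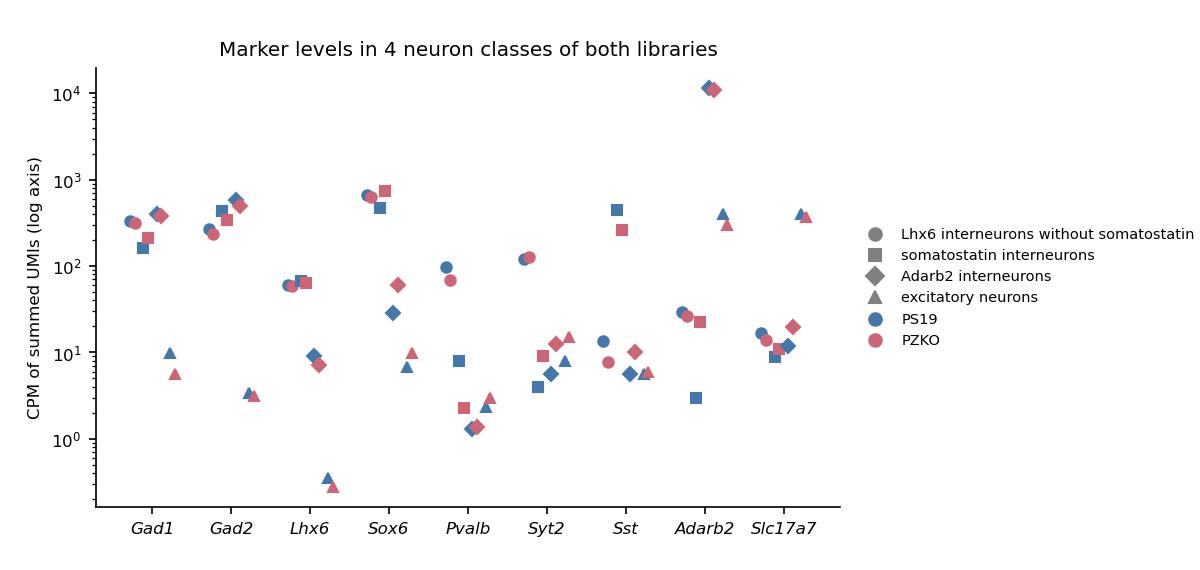
Levels of 9 marker genes as CPM of summed UMIs (vertical log axis) in 4 neuron classes, marked by symbol, of the PS19 (blue) and PZKO (red) libraries. Pvalb and Syt2 stand at 69.2 to 129 CPM in the members and below 15 CPM in the other classes, while Gad1, Gad2, Lhx6, Sox6, Sst, Adarb2 and Slc17a7 follow from the way classes were chosen.

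Of 18 fast-spiking channel genes tested against somatostatin interneurons, 9 were higher and 0 lower in both libraries. Kcnc1, the Kv3.1 subunit, was 404 and 395 CPM in the members against 171 and 171 CPM, and Kcnc2, the Kv3.2 subunit, was 2830 and 3270 CPM against 1769 and 2140 CPM. Kcna1, an axonal Kv1 subunit, was 115 and 97.6 CPM against 36.7 and 41.8 CPM. The largest ratio of the list was that of Fgf13, a regulator of sodium channels, with 765 and 885 CPM against 151 and 242 CPM, which is a log2 ratio of 2.34 in PS19 and 1.87 in PZKO. Against Adarb2 interneurons 11 of 19 were higher and 2 lower. Kcnab3, a Kv1 auxiliary subunit, led the higher ones at 45.0 and 38.3 CPM against 4.61 and 5.72 CPM, and the lower ones were Kcnc4 and Kcnip1.

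Genes of the perineuronal net are given next. Acan stood at 15.01 CPM in PS19 members and 15.27 CPM in PZKO members, and in somatostatin interneurons at 0.991 CPM in PS19 and 0 UMIs in PZKO. Brevican (Bcan) was 66.1 and 61.8 CPM against 26.8 and 22.4 CPM, and the link protein Hapln4 was 21.7 and 14.4 CPM against 9.91 and 6.91 CPM. In all, 5 of 8 net genes were higher than in somatostatin interneurons and 0 lower. Against Adarb2 interneurons 4 were higher (Acan, Bcan, Hapln4 and tenascin-R, Tnr) and 2 were lower (versican, Vcan, and the receptor phosphatase Ptprz1). Astrocytes also make several of these proteins, and 4 of 6 astrocyte markers were higher in the members than in somatostatin interneurons in both libraries; the part of astrocyte RNA in the net genes was not tested.

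Receptor genes separated the classes in both directions. The GABA-A subunit gene Gabrd, whose product forms extrasynaptic receptors, was 45.0 and 47.3 CPM in the members against 2.97 and 4.61 CPM in somatostatin interneurons, and Gabrg3 was 2338 and 2539 CPM against 424 and 685 CPM. Of 19 GABA and glycine receptor genes, 6 were higher and 3 lower (Gabra2, Gabrg1 and Glra3). Glutamate receptors showed the reverse balance, with 1 of 26 higher (Shisa9, an AMPA receptor auxiliary protein) and 9 lower. The metabotropic receptor Grm7 was 499 and 469 CPM in the members against 1729 and 1824 CPM, and Grm8 was 42.5 and 38.0 CPM against 176 and 224 CPM. Against Adarb2 interneurons 6 of 26 glutamate receptor genes were higher and 7 lower, and 3 of 18 GABA and glycine receptor genes were higher and 4 lower. Among the higher ones was the AMPA subunit gene Gria3, at 936 and 983 CPM against 261 and 270 CPM, and among the lower ones Grm8, at 42.5 and 38.0 CPM against 318 and 400 CPM.

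Adhesion and guidance genes included some of the widest gaps. Erbb4, the neuregulin receptor that shapes inputs to fast-spiking cells, was 8526 and 10124 CPM in the members against 761 and 1512 CPM in somatostatin interneurons, and a nucleus held a median of 190 UMIs (PS19) or 318 UMIs (PZKO). The repellent ligand Slit2 was 693 CPM in the members of both libraries, against 31.7 and 92.8 CPM in somatostatin interneurons and 32.9 and 51.1 CPM in Adarb2 interneurons. Il1rapl2, a synaptic adhesion gene, was 917 and 906 CPM in the members against 57.6 and 58.2 CPM in Adarb2 interneurons. Of 36 genes of this list, 9 were higher and 6 lower than in somatostatin interneurons. Against Adarb2 interneurons 7 of 37 were higher and 7 lower.

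The genes that stood furthest above somatostatin interneurons, ranked by the smaller of the ratios in the 2 libraries, were Adamtsl5, Sox5os4, Fras1, Aox3, Myo1e, Mrvi1, Pde11a, Acan, Syt2, Pde5a, Col16a1, Pvalb, Gpnmb, Gm26633 and Mybpc1. Adamtsl5, a gene of the extracellular matrix, had 74 and 173 UMIs in the members against 1 and 3 UMIs in somatostatin interneurons, log2 ratios of 4.58 (2.05 to 9.90) in PS19 and 4.89 (3.32 to 7.19) in PZKO. With so few UMIs in the other class, its place above genes such as Fras1, Pde11a and Syt2 is not resolved. Somatostatin interneurons had 0 UMIs of Aox3, Mrvi1 and Acan in PZKO and of Mybpc1 in PS19. Those ratios rest on 3 counts put in place of 0, so the places of these genes are not resolved either. Pde11a and Pde5a, enzymes that break down cyclic nucleotides, were at 209 and 197 CPM and at 102 and 136 CPM in the members. Reln, which encodes the secreted protein reelin, was among the lowest, at 134 and 133 CPM against 1013 and 970 CPM. Against Adarb2 interneurons the highest were Adamtsl5, Pvalb, Gm26633, Mypn, Crhbp, Nxph2, Gna14, Cdk15, 9630002D21Rik, Tmem44, Il1rapl2, Gm35725, Mybpc1, Moxd1 and Akr1c18, and all 7 caudal interneuron markers tested, which include the Adarb2 used in the choice, were lower, Vip at 1.92 and 1.87 CPM against 258 and 180 CPM. Adarb2 interneurons had 0 UMIs of Akr1c18 in both libraries, of Gna14 in PZKO and of 9630002D21Rik in PS19. The places of these genes thus rest on 3 counts put in place of 0 and are not resolved.

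The members were not uniform. Clustering of the 294 nuclei by their own variable genes gave 8 subclusters, described by their leading genes, and since these genes made the subclusters they are not results about them. Subcluster 1 (27 PS19 and 42 PZKO nuclei) was led by Eya4, Sema3e, Luzp2 and Runx2. Subcluster 2 (21 and 31 nuclei), led by Aox3, Pde3a and Unc5b, had axo-axonic cell markers (Vipr2, Unc5b, Pthlh and C1ql1) at 108 CPM against 10.1 CPM in the other members, and basket cell markers at 1021 CPM against 830 CPM. Unc5b had a UMI in 42.3% of its nuclei and Vipr2 in 17.3%, so subcluster 2 was not named. Subcluster 4 (20 and 18 nuclei) was led by Fam129a, Gsg1l and Gpr149. Subclusters 1, 2 and 4 are called Pvalb-rich here, from their Pvalb levels, and together they made up 68 of 127 PS19 members (53.5%) and 91 of 167 PZKO members (54.5%).

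The other subclusters differed in which marker lists they held. Subcluster 3 (18 and 21 nuclei), led by Cacna2d1, Prex2 and Hcrtr2, had ivy and neurogliaform markers at 771 CPM, caudal interneuron markers at 345 CPM and astrocyte markers at 1301 CPM against 108 CPM in the other members, and was not named. Its oligodendrocyte precursor markers were at 225 CPM against 9.05 CPM, with Vcan among its leading genes, and its excitatory neuron markers at 525 CPM against 285 CPM. Markers of GABA neurons outside the hippocampus were at 115 CPM against 34.5 CPM in subcluster 3, 116 against 40.7 CPM in subcluster 7 and 109 against 41.1 CPM in subcluster 8. Subcluster 7 (12 and 10 nuclei) was led by Unc13c, Arhgap6 and Grin3a, with somatostatin cell markers at 2423 CPM against 316 CPM in the other members, and ivy and neurogliaform markers at 889 CPM against 184 CPM, although each of its nuclei had fewer than 3 Sst UMIs. Subcluster 8 (10 and 9 nuclei) was led by St18, Prr5l and Gjc3, with oligodendrocyte markers at 1848 CPM against 148 CPM and choroid plexus markers at 356 CPM against 97.7 CPM. Subclusters 5 (14 and 16 nuclei, with Htr2c among the leading genes, and Trpm3, of which 1 nucleus held 421 of 432 UMIs) and 6 (5 and 20 nuclei, led by Ptprk, Corin and Gm32647) exceeded the other members by more than 1.5-fold in 1 marker list, vascular markers in subcluster 5, at 66.7 CPM against 6.26 CPM. They held basket cell markers at 617 and 675 CPM and Kcnc2 at 4797 and 6065 CPM, and Tac1, a basket cell marker, was among the leading genes of subcluster 5. Subcluster 8 had basket cell markers at 715 CPM and Kcnc2 at 3219 CPM. The choice thus kept nuclei of several subclusters, and Pvalb-rich ones in shares whose intervals overlap (44.5 to 62.4 in PS19 and 46.6 to 62.2 in PZKO).

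The widest gap in share was that of subcluster 6. It made up 3.94% of PS19 members (1.29 to 8.95) and 11.98% of PZKO members (7.47 to 17.9), from 5 and 20 nuclei, and its intervals overlap between 7.47 and 8.95. Subcluster 4 was 15.7% of PS19 members (9.89 to 23.3) and 10.8% of PZKO members (6.51 to 16.5). The intervals of the 2 libraries overlapped for all 8 subclusters.

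**Figure D2:**
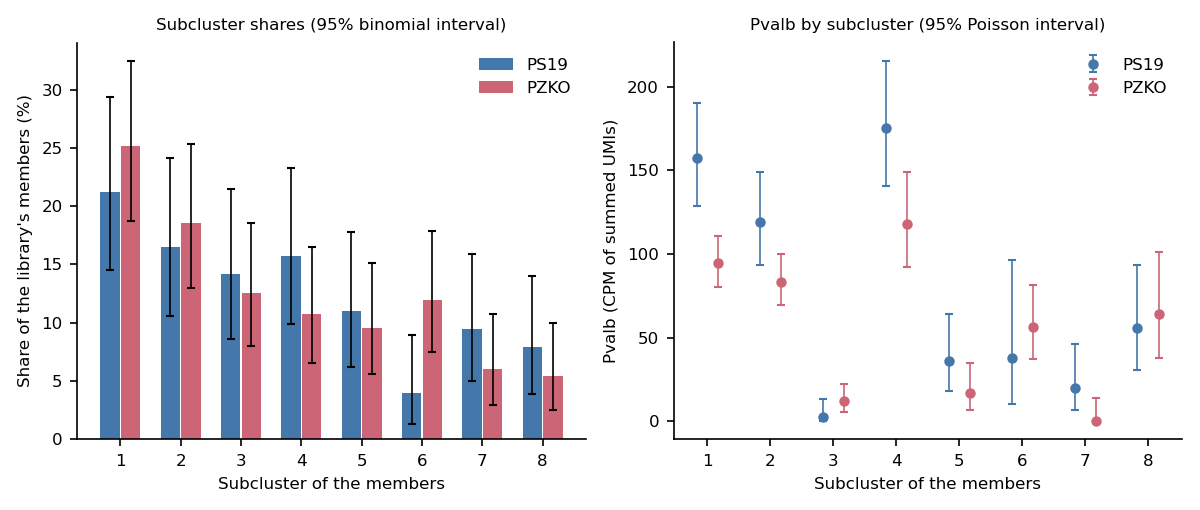
Left, share of each library's members (%) in each of 8 subclusters, with exact binomial 95% intervals. Right, Pvalb in CPM of summed UMIs by subcluster, with exact Poisson 95% intervals. Blue is PS19 and red is PZKO, and Pvalb is lower in PZKO in subclusters 1, 2 and 4, from 157 to 94.9, 119 to 83.5 and 175 to 118 CPM, lower also in subclusters 5 and 7, and higher in subclusters 3, 6 and 8.

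The comparison of genotypes asked whether these interneurons differ between PS19 and PZKO. Most genes lay within 1.5-fold, among them all 18 fast-spiking channel genes and all 17 GABA and glycine receptor genes tested. Among the larger differences were lower mitochondrial transcripts, lower metallothioneins and chaperones, and lower transthyretin (Ttr) in PZKO, the first 3 of them smaller at no more than 1% mitochondrial UMIs. For mitochondrial transcripts that limit acts on the UMIs compared, so the smaller difference follows from it. Npy was also past 1.5-fold lower, Pvalb was lower by less than 1.5-fold, and a small group of genes that includes Gm17167 and Col26a1 was higher. Of 8855 genes that reached 100 UMIs in the members, 144 (1.63%) were at least 1.5-fold higher in PZKO and 384 (4.34%) at least 1.5-fold lower, and the median log2 ratio of PZKO over PS19 was -0.02. The excess of lower genes was not seen under every setting, with 242 higher and 153 lower in the largest subcluster, 180 and 159 in nuclei with at most 2 UMIs of other classes' markers, and 130 and 128 after thinning to 10000 UMIs.

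Zbp1 itself could not be read in these cells, since it had 0 UMIs in the members of both libraries, where 3 counts would be 0.958 CPM in PS19 and 0.509 CPM in PZKO. Over all nuclei that met the quality limits it was 0.819 CPM in PS19 and 0.282 CPM in PZKO, and whether its counted 3' end lies inside the deleted part was not analysed here. Mapt, the tau gene, was 310 and 322 CPM with a log2 ratio of 0.05 (95% interval -0.06 to 0.16). Prnp, whose promoter drives the transgene, was 126 and 85.5 CPM, a log2 ratio of -0.55 (-0.75 to -0.36), -0.25 among nuclei with at most 1% mitochondrial UMIs and 0.048 (-0.45 to 0.57) in the largest subcluster. The counts do not separate transcripts of the transgene from those of the mouse genes.

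**Figure D3:**
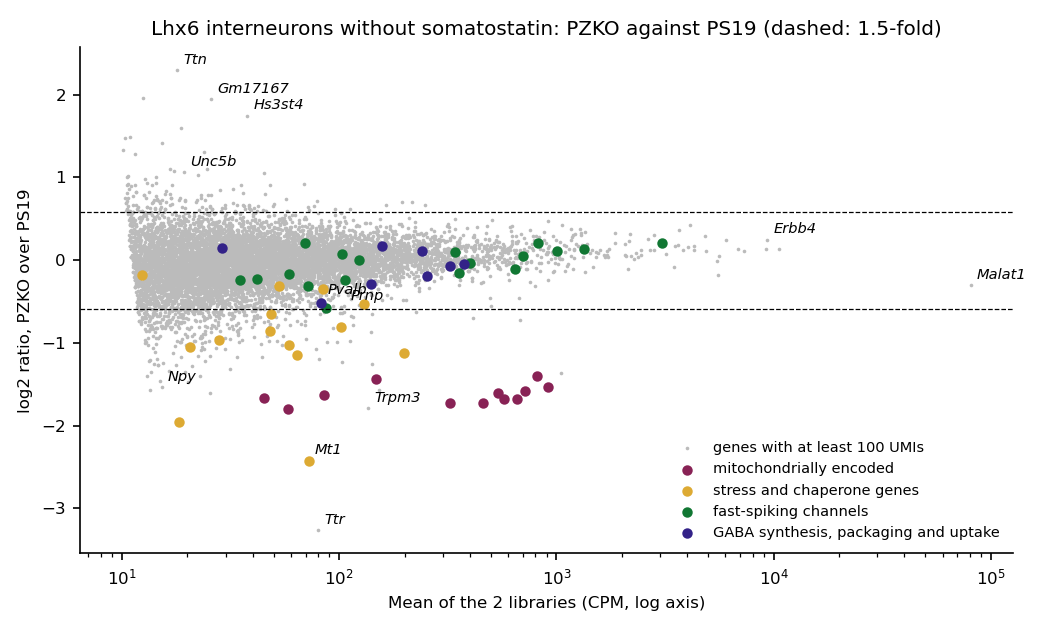
Log2 ratio of PZKO over PS19 (vertical axis) against the mean level of the 2 libraries (CPM, horizontal log axis) for the 8855 genes tested in the members, with 4 gene lists in colour and the 1.5-fold limits dashed. Mitochondrially encoded genes lie between -1.79 and -1.41, while fast-spiking channel genes lie between -0.58 and 0.21.

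Pvalb, on chromosome 15 (chr15:78191114-78206400, mm10, minus strand), had 303 UMIs in 127 PS19 members and 408 UMIs in 167 PZKO members. The median was 1 UMI per nucleus in both libraries and the highest was 12 and 11 UMIs. Scaled to the UMIs of each nucleus, the median was 0.607 per 10000 UMIs in PS19 and 0.453 in PZKO and the highest was 4.32 and 3.30, so the ranges overlapped, with both values lower in PZKO. The summed level was 96.8 CPM in PS19 and 69.2 CPM in PZKO, giving a log2 ratio of -0.48 (-0.70 to -0.26). It did not reach 1.5-fold in the members as a whole. Within the 3 Pvalb-rich subclusters together the level was 149 CPM in PS19 and 94.3 CPM in PZKO, giving a log2 ratio of -0.66 (-0.89 to -0.42). The ratio was below 0 in each of them, at -0.73 in subcluster 1, -0.51 in subcluster 2 and -0.57 in subcluster 4, and among all members with at most 1% mitochondrial UMIs it was -0.40. These 3 subclusters were singled out by their Pvalb. Of the others, Pvalb was higher in PZKO in subcluster 3 (2.42 and 11.8 CPM), subcluster 6 (37.7 and 56.0 CPM) and subcluster 8 (55.7 and 63.9 CPM), and lower in subcluster 5 (35.8 and 17.0 CPM) and subcluster 7 (5 UMIs in PS19 and 0 in PZKO).

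The other basket cell markers tested lay closer to 0 than Pvalb, with 1 exception. Syt2 was 121 CPM in PS19 and 129 CPM in PZKO, giving a log2 ratio of 0.08, Kcnc1 was at -0.03 and Kcns3 at 0.07. The exception was Tac1, at 23.6 and 16.8 CPM (-0.49, but 0.28 after thinning to 10000 UMIs and 0.41 in nuclei with at most 2 UMIs of other classes' markers, both with intervals that hold 0), while Cplx1, a regulator of fast release, was at -0.27. Of 6 basket cell markers tested, 0 passed 1.5-fold, with a median of -0.15. In the Lhx6 lineage list, which includes the Lhx6 and Sox6 used in the choice, 0 of 16 passed 1.5-fold, among the others Satb1 at 261 and 267 CPM and Maf at 443 and 373 CPM.

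Of 8 genes of GABA synthesis, packaging and uptake, 0 passed 1.5-fold, but Gad1 and Gad2 among them were used in the choice, so the count is only a description. The widest gap was in Slc32a1, the transporter that loads GABA into vesicles, at 96.8 CPM in PS19 and 67.4 CPM in PZKO, giving a log2 ratio of -0.52 (-0.74 to -0.30). It was also lower in PZKO in somatostatin interneurons (-0.89) and in Adarb2 interneurons (-0.70), and was at -0.24 in members with at most 1% mitochondrial UMIs. Of 17 GABA and glycine receptor genes 0 passed 1.5-fold, and their median was -0.03.

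Of 18 fast-spiking channel genes 0 passed 1.5-fold in either direction, with a median of -0.02. Kcnc2 was 2830 CPM in PS19 and 3270 CPM in PZKO (log2 ratio 0.21), and Scn1a, the sodium channel of fast-spiking axons, 667 and 617 CPM (-0.11). The lowest was Kcna2, an axonal Kv1 subunit, at 105 and 69.9 CPM (-0.58, with -0.29 at no more than 1% mitochondrial UMIs). Transmitter release genes gave 2 of 21 lower, Vamp2 (65.8 and 37.5 CPM), a vesicle SNARE, and Calb1 (41.8 and 27.1 CPM), another calcium buffer, with a median of -0.04. Calb1 turned to a log2 ratio of 1.05 (0.13 to 2.10) within the 3 Pvalb-rich subclusters.

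In the perineuronal net list the median was 0.12, with 1 of 8 higher and 2 lower. The higher gene was neurocan (Ncan), with 36 UMIs in PS19 and 109 in PZKO, giving a log2 ratio of 0.69. Over the settings the ratio of Ncan ranged from 0.10 to 2.65, so it was not past 1.5-fold under every one. The lower genes were Ptprz1, at 117 and 58.7 CPM (-0.99), and Hapln4, at 21.7 and 14.4 CPM (-0.59), with 0.28 (-0.81 to 1.44) after thinning to 10000 UMIs. At no more than 1% mitochondrial UMIs Ptprz1 was at -0.54 and Hapln4 at -0.50, both within 1.5-fold. Over the settings Ptprz1 ranged from -2.09 to -0.11. Acan, the core proteoglycan, was 15.01 and 15.27 CPM. Astrocyte markers, which share sources with some of these genes, had a median log2 ratio of -0.88 in the members and 4 of 6 were lower (Aqp4, Gja1, Gfap and Aldoc), their summed level going from 307 to 241 CPM with Slc1a2 the most abundant and none of the 6 at 0; their part in the difference was not tested.

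Among 25 glutamate receptor genes the median log2 ratio was 0.07, with 1 higher and 1 lower. The kainate receptor gene Grik4 was 42.8 CPM in PS19 and 71.3 CPM in PZKO (0.74, 0.45 to 1.03). Its log2 ratio ranged from 0.20 to 3.79 over the settings, so it did not pass 1.5-fold under every one. Grin3a, an NMDA receptor subunit that marks somatostatin cells, was 181 and 99.1 CPM (-0.87), and it turned to 0.60 when nuclei were thinned to 10000 UMIs before they were chosen. Of 5 somatostatin cell markers tested, 3 were lower in PZKO (Npy, Grin3a and Elfn1) and the median was -0.62, with a summed level of 516 CPM in PS19 and 398 CPM in PZKO.

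Synapse organizers and guidance genes had a median of 0.11, and 26 of 35 had a ratio above 0. This was not particular to the members. Ratios above 0 numbered 24 of 32 in somatostatin interneurons, 25 of 35 in Adarb2 interneurons and 28 of 38 in excitatory neurons. The medians there were 0.20, 0.14 and 0.13. Erbb4 was 8526 CPM in PS19 and 10124 CPM in PZKO, giving a log2 ratio of 0.25. The higher genes past 1.5-fold were Ephb1, an ephrin receptor, at 10.5 and 22.6 CPM (1.10, but -0.73 within the 3 Pvalb-rich subclusters, from 13 and 16 UMIs and with an interval of -1.88 to 0.44), and Unc5b, a netrin receptor of axo-axonic cells, at 12.5 and 26.1 CPM (1.07, 0.55 to 1.61). Most Unc5b UMIs came from subcluster 2, 23 in PS19 against 131 in PZKO, or 36.5 and 91.2 CPM. They rested on few nuclei, and single PZKO nuclei of subcluster 2 held 33, 26, 22 and 13 of them. Over the settings the ratio of Unc5b ranged from -1.30 to 3.09. In subcluster 1, the largest, Unc5b had 4 UMIs in each library and Ephb1 had 5 and 6, too few to give a direction. Elfn1, a postsynaptic organizer of somatostatin cells, was the 1 lower gene, at 30.0 and 19.5 CPM, and its log2 ratio of -0.62 turned to 0.96 (0.20 to 1.78) after thinning to 10000 UMIs.

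**Figure D4:**
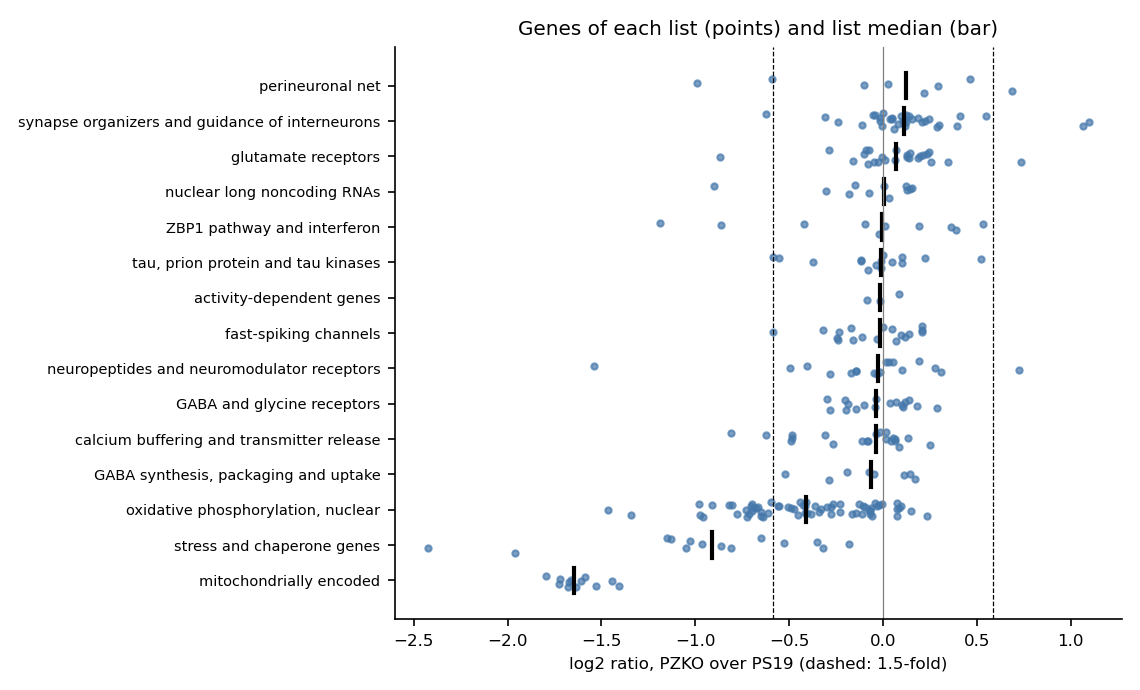
Log2 ratio of PZKO over PS19 in the members (horizontal axis) for the tested genes of 15 function lists, with 1 point per gene and the median as a bar. Only the mitochondrially encoded, the stress and chaperone and the nuclear oxidative phosphorylation lists have a median below -0.3, at -1.65, -0.91 and -0.41.

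Npy (chr6:49822710-49829507, mm10, plus strand) was lower in PZKO. It had 71 UMIs in 29 PS19 members and 46 UMIs in 27 PZKO members, 22.7 and 7.80 CPM, a log2 ratio of -1.54 (-2.11 to -0.98). No nucleus held more than 12 UMIs (PS19) or 3 UMIs (PZKO), and the libraries overlapped. Somatostatin interneurons went from 195 to 64.5 CPM (-1.60) and Adarb2 interneurons from 116 to 39.3 CPM (-1.56), and among members with at most 1% mitochondrial UMIs the ratio was -1.05. In excitatory neurons Npy was also lower, at -0.56, within 1.5-fold. It was the lowest ratio there among 7 genes of the ivy and neurogliaform list, of which 0 were past 1.5-fold lower. Of 18 neuropeptide and neuromodulator receptor genes tested, Npy was the 1 lower gene and Tacr1, the substance P receptor, the 1 higher gene (13.7 and 22.7 CPM, but with a log2 ratio of -0.53 from 7 and 12 UMIs in subcluster 1, interval -1.99 to 1.06), with a median of -0.02.

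Mitochondrially encoded genes were lower in PZKO in the summed members, 12 of 12, with log2 ratios from -1.79 to -1.41 and a median of -1.65. The choice of members also used these UMIs, through its limit of 5%. Their summed level was lower in PZKO in subclusters 1, 2, 3, 4, 5 and 8. It was higher in PZKO in subcluster 6 (1732 and 2369 CPM) and subcluster 7 (2042 and 2680 CPM). The gene with the most UMIs, mt-Co3, a subunit of cytochrome c oxidase, was 1357 CPM in PS19 and 470 CPM in PZKO (-1.53, -1.60 to -1.46). The median nucleus held 0.318% mitochondrial UMIs in PS19 and 0.176% in PZKO. Members with more than 1% mitochondrial UMIs were 32 of 127 in PS19 (25.2%, 17.9 to 33.7) and 6 of 167 in PZKO (3.59%, 1.33 to 7.66), and in PS19 they held 74.6% of all mitochondrial UMIs of the members. With only nuclei of at most 1% kept, 95 in PS19 and 161 in PZKO, the median was -0.31, although this limit is set on the same UMIs that the list counts. The same list had medians of -1.03 in somatostatin interneurons, -0.84 in Adarb2 interneurons and -0.62 in excitatory neurons.

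**Figure D5:**
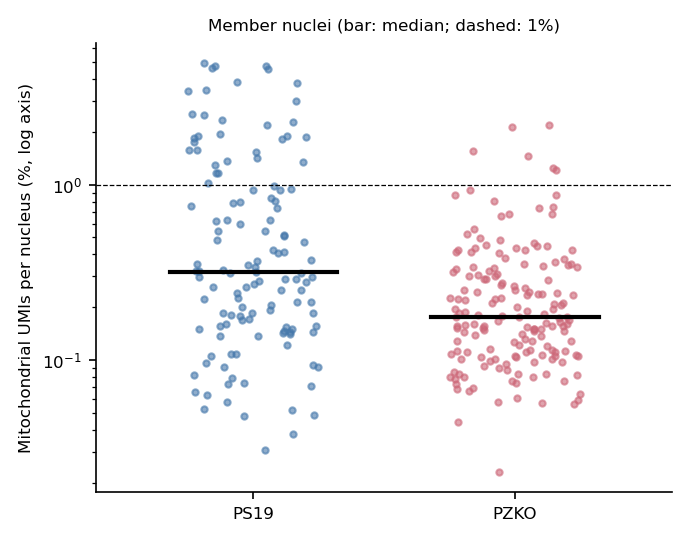
Mitochondrial share of the UMIs of each member nucleus (%, log axis) in PS19 and PZKO, with 1 point per nucleus and the median as a bar. The medians are 0.318% and 0.176%, and 32 PS19 and 6 PZKO nuclei lie above the dashed line at 1%.

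Nuclear genes of oxidative phosphorylation followed at a smaller size. Of 67 tested, 23 were lower and 0 higher, with a median of -0.41, which was -0.21 at no more than 1% mitochondrial UMIs. The largest gaps were in Atp5e, of the ATP synthase, at 22.04 CPM in PS19 and 7.97 CPM in PZKO, and Uqcr11, of complex III, at 23.6 and 9.33 CPM. Atp5c1, also of the ATP synthase, was 84.6 and 99.6 CPM, so the list was not uniform. Its median was -0.41 in somatostatin interneurons, -0.36 in Adarb2 interneurons and -0.31 in excitatory neurons.

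Stress and chaperone genes gave 10 of 14 lower and 0 higher, with a median of -0.91, or -0.51 at no more than 1% mitochondrial UMIs. The median of the list was -0.60 in somatostatin interneurons, -0.56 in Adarb2 interneurons and -0.44 in excitatory neurons. Fth1, the heavy chain of ferritin, was 272 CPM in PS19 and 125 CPM in PZKO, and Hspa8, a constitutive chaperone, 78.6 and 38.5 CPM (-1.03). The metallothionein Mt1 was 122 and 22.7 CPM (-2.42), with 129 of its 382 PS19 UMIs in 1 nucleus, and -1.83 without that nucleus. At no more than 1% mitochondrial UMIs the log2 ratio of Mt1 was -1.44, and that of Mt2 went from -1.96 to -0.51, within 1.5-fold. Metallothioneins and ferritin are also abundant in glia, and some glial marker lists were lower in PZKO. Oligodendrocyte markers went from 338 to 200 CPM (3 of 4 tested lower, Mbp the most abundant), astrocyte markers from 307 to 241 CPM (4 of 6 tested lower, Slc1a2 the most abundant) and microglia markers from 64.8 to 38.7 CPM (1 gene tested, within 1.5-fold). Oligodendrocyte precursor markers were at 34.8 and 38.5 CPM, with the 1 gene tested, Vcan, at 0.30. No marker of these 4 lists was at 0. Oligodendrocyte markers went from 147 to 269 CPM in somatostatin interneurons, from 411 to 382 CPM in Adarb2 interneurons and from 284 to 227 CPM in excitatory neurons. The part of glial RNA in the stress list was not tested.

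Ttr, a thyroid hormone carrier made in bulk by the choroid plexus, had the lowest ratio of all genes tested. It was 145 CPM in PS19 and 15.1 CPM in PZKO (-3.27, -3.61 to -2.94), with UMIs in 121 of 127 and 62 of 167 members. The same held in every class, with log2 ratios of -3.34 in somatostatin interneurons, -2.98 in Adarb2 interneurons and -3.04 in excitatory neurons, and at similar shares of nuclei, 94.5% and 43.1% of excitatory neurons having a UMI. Over all quality nuclei it was 355 and 50.6 CPM. After an estimate of free RNA was subtracted, the ratio in the members was -1.40. The choroid plexus list summed to 212 CPM in PS19 and 60.4 CPM in PZKO with Ttr the most abundant and none of 4 at 0, and the other one with enough UMIs was Enpp2, at 63.2 and 44.5 CPM; the part of choroid plexus RNA in the difference was not tested.

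Ranking all tested genes by whichever interval bound lay closer to 0 placed Ttr, Mt1, mt-Nd4, mt-Nd2, Trpm3, mt-Atp6, mt-Nd1, mt-Cytb, mt-Co2, mt-Nd3, mt-Co3, Mt2, mt-Nd4l, Cst3 and mt-Atp8 at the low end. Trpm3, a cation channel, rested on a single nucleus, with 421 of its 660 PS19 UMIs in 1 member, and its log2 ratio of -1.79 became -0.33 without that nucleus. Cst3, a secreted protease inhibitor abundant in glia, was 227 and 76.7 CPM (-1.56), and -1.24 without the nucleus with the most UMIs.

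At the high end of the same ranking stood Ttn, Gm17167, Hs3st4, Pappa, 9330111N05Rik, Adamts16, Tcf7l2, Plekhd1, Gm45341, Klhl1, Col26a1, Ccbe1, Adamtsl1, Gm49678 and Gipc2. Several rested on few nuclei. Ttn had 95 of 176 PZKO UMIs in 1 nucleus, Tcf7l2 74 of 131 and Hs3st4 82 of 341, and without that nucleus their log2 ratios went from 2.30 to 1.18, from 1.42 to 0.22 and from 1.75 to 1.35. Genes seen in many nuclei are described next.

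Gm17167, a noncoding transcript on chromosome 4 (chr4:42206998-42235313, mm10, plus strand), had 33 UMIs in 16 PS19 members and 240 UMIs in 99 PZKO members. No nucleus held more than 4 UMIs (PS19) or 10 UMIs (PZKO), and the libraries overlapped. Its level was 10.5 and 40.7 CPM, a log2 ratio of 1.95 (1.42 to 2.52), and it was higher in PZKO in each of the 8 subclusters. The log2 ratio was 2.86 in somatostatin interneurons, 1.71 in Adarb2 interneurons and 1.73 in excitatory neurons, so the difference was present in every class compared.

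Adamts16, a secreted metalloprotease of the extracellular matrix, had 43 UMIs in 28 PS19 members and 201 in 71 PZKO members, 13.7 and 34.1 CPM (1.31, 0.83 to 1.82), and its ratio was 1.02 in Adarb2 interneurons and 0.10 in excitatory neurons. Somatostatin interneurons held 10 and 82 Adamts16 UMIs, below the minimum of 100. It was among the leading genes of subcluster 6, which held a larger share of PZKO members. With each subcluster weighted in both libraries by its share of all members, the ratio of Adamts16 was 1.07. Adamts16 was not higher in every subcluster, with 22.8 and 17.0 CPM in subcluster 5 (7 UMIs in each library) and 1 UMI in each library in subcluster 7. Plekhd1 had 18 UMIs in 13 PS19 members and 95 in 52 PZKO members, 5.75 and 16.1 CPM (1.49, 0.75 to 2.30). Col26a1, a collagen, had 150 UMIs in 60 PS19 members and 533 in 114 PZKO members, 47.9 and 90.4 CPM (0.92, 0.65 to 1.19), but 141 and 120 CPM in subcluster 6.

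Genes that the study named in excitatory neurons were compared in the members at the 1.5-fold limit. Of those named as higher there, 0 of 13 passed 1.5-fold in the members and 8 had a ratio above 0, with a median of 0.08. Examples are Rora at 1060 and 1289 CPM and Gria4 at 1942 and 2215 CPM. Of those named as lower, 11 of 12 were lower, with a median of -0.92, which was -0.53 at no more than 1% mitochondrial UMIs. They included Apoe at 200 and 83.6 CPM and Clu at 144 and 61.4 CPM, both made chiefly by astrocytes. In excitatory neurons, at the same limit, 10 of 20 genes named as higher were higher and 8 of 14 named as lower were lower. The fold limit that the study states for its microglia plot lies below 1.5-fold. The study chose these genes on the same libraries, so the counts are not independent evidence of direction.

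Few genes of the remaining lists passed 1.5-fold. Of 15 genes of tau, prion protein and tau kinases, 0 passed 1.5-fold, with a median of -0.01, the widest gaps being Cdk5r1 (28.7 and 19.2 CPM), the activator of Cdk5, and Ttbk1 (48.2 and 69.2 CPM), a tau kinase. In the list of the ZBP1 pathway and interferon, 10 of 22 genes had enough UMIs, 0 were higher and 2 lower, B2m, of the class I histocompatibility complex (20.1 and 8.82 CPM), and Ifngr2, an interferon gamma receptor chain (17.2 and 9.50 CPM), with a median of -0.00347 that was 0.28 at no more than 1% mitochondrial UMIs. Activity-dependent genes were too sparse, with 3 of 21 tested and 0 past 1.5-fold. Of 11 nuclear long noncoding RNAs 1 was lower, Neat1 (44.4 and 23.8 CPM, a log2 ratio of -0.90 that was 0.19 at no more than 1% mitochondrial UMIs, interval -0.30 to 0.71, with 1 and 5 UMIs in subcluster 1), while Malat1 was 89202 and 72298 CPM (-0.30).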

How the data were processed

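The authors aligned reads to mm10 with Cell Ranger (7.0.1 in the submitters' processing notes, 8.0.1 in the file headers) and deposited UMI counts per gene and nucleus, whole numbers without normalization. The study handled free RNA (SoupX) and doublets (DoubletFinder) downstream of these counts. Counts were summed over the members of each library, scaled to CPM and compared as log2 ratios with exact conditional binomial 95% intervals (Python 3.11.15, scipy 1.17.1). Genes needed 100 UMIs in total; called means past 1.5-fold, and a count of 0 was replaced by 3 counts. Shares have exact binomial (Clopper-Pearson) and sums exact Poisson intervals. These cover counting error only. Members were clustered with scanpy 1.11.5 and leidenalg 0.10.2 at resolution 1. Gene positions came from the GENCODE annotation of mm10. Genes named are the 15 lowest and 15 highest by the interval bound closest to 0, Zbp1, Mapt, Prnp, all markers and the members of described lists, and in the comparison of classes the 15 highest. Members and lists were chosen with earlier results of these data known. Doublets were kept and removed by Scrublet score as an alternative (14 PS19 and 18 PZKO members). Alternatives covered scaling (edgeR 4.0.16 TMM, DESeq2 1.42.0 size factors, used for factors alone), count minimum, free RNA, depth, criteria of the class and subclusters. The procedure was tested on simulated Poisson counts of each library. These leave out the clumping of UMIs in single nuclei, so the test cannot say how the intervals hold under it. Some genes of the lists are not reported here.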

Additional observations from a re-analysis of the deposited data

Results flagged for a closer look

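Some genes lay past 1.5-fold in opposite directions in the members and in another interneuron class, and the difference between the classes was not tested. Trpm3 had a log2 ratio of PZKO over PS19 of -1.79 in the members (660 and 359 UMIs, 421 of the former in 1 nucleus) and 0.738 in Adarb2 interneurons (1620 and 4502 UMIs). Gm45341 was 1.05 in the members (92 and 359 UMIs), -0.889 in somatostatin interneurons (142 and 231 UMIs) and -0.682 in Adarb2 interneurons (411 and 427 UMIs). Gm49678 was 1.28 in the members, from 5 PS19 and 19 PZKO nuclei, and -0.867 in somatostatin interneurons (155 and 256 UMIs).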

How the results depend on the processing

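No paired analysis was possible because each genotype has 1 library, and none could be left out. Some of the 21 settings were chosen after seeing the data. They were thinning to 10000 UMIs, the 3 Pvalb-rich subclusters, the same subcluster weights in both libraries and leaving out each gene's highest nucleus. The weight of a subcluster was its share of all members. Pvalb had a log2 ratio of -0.85 to -0.40 under every setting that gave gene values, Npy -2.04 to -0.79, Gm17167 1.40 to 2.46, Slc32a1 -0.99 to -0.24 and Ttr -3.57 to -1.40, the last after free RNA was subtracted. Nuclei with a Pvalb UMI and the 3 Pvalb-rich subclusters were chosen by Pvalb, so these settings say nothing about the stability of its ratio. No list with a median past 1.5-fold changed sign under these settings, and the median of mitochondrially encoded genes ranged from -1.86 to -0.31. The share of members among inhibitory nuclei was 20.04% in PS19 and 23.7% in PZKO with 0 Sst UMIs, 23.5% and 27.4% with at least 6 Lhx6 and Sox6 UMIs, 27.3% and 35.7% with at most 2 UMIs of other classes' markers, and 5.88% (3 of 51) and 2.33% (1 of 43) after thinning to 3000 UMIs, where 2 genes reached 100 UMIs and the genes named here could not be compared. Genes higher and lower in PZKO, 144 and 384, became 637 and 1332 with a minimum of 20 UMIs and 23 and 66 with 400. Higher genes were 229 after free RNA was subtracted, and 242 in the largest subcluster with 153 lower. Lower genes were 128 after thinning to 10000 UMIs (with 130 higher) and 159 with at most 2 UMIs of other classes' markers (with 180 higher). TMM gave 163 and 353, and DESeq2 factors 164 and 350.

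Of 61 genes followed, 19 whose 95% counting interval left out 0 changed sign under at least 1 setting, and the cause was not tested. Genes with an interval that held 0, among them Syt2, Lhx6 and Mapt, also crossed 0 and are not in this count. Of the 31 changes of sign, 26 had an interval under that setting that holds 0, many from few UMIs, and 5 did not: Trpm3 in nuclei with a Pvalb UMI, Tcf7l2 without the highest Scrublet scores, Grin3a and Elfn1 after thinning, and Calb1 in the 3 Pvalb-rich subclusters. In the largest subcluster the changes were Ttn (-0.72), Hs3st4 (-1.30), Klhl1 (-0.50), Gm49678 (-0.57), Prnp (0.048), Unc5b (-1.30), Grin3a (1.87), Calb1 (0.63), Ephb1 (-1.04), Tacr1 (-0.53) and Neat1 (1.02). With at most 2 UMIs of other classes' markers they were Trpm3 (0.29), Ttn (-0.057), Tcf7l2 (-2.52), Tac1 (0.41), Id2 (0.21) and Elfn1 (0.27). In nuclei with a Pvalb UMI they were Trpm3 (1.07), Pappa (-1.21) and Tcf7l2 (-0.14). With 0 Sst UMIs they were Pappa (-0.00087), Gm45341 (-0.031) and Calb1 (0.36). After thinning to 10000 UMIs they were Tac1 (0.28), Grin3a (0.60), Elfn1 (0.96) and Hapln4 (0.28), and in the 3 Pvalb-rich subclusters Calb1 (1.05) and Ephb1 (-0.73). Neat1 was 0.19 at no more than 1% mitochondrial UMIs and Tcf7l2 -3.03 without the highest Scrublet scores.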
